A study of Mus musculus with 12 samples.

Results

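The C-type lectin receptors of macrophages described here are Mincle, encoded by Clec4e, and 7 related receptors, encoded by Clec4d, Clec4n, Clec7a, Clec5a, Clec12a, Clec4a1 and Clec4a3. These 8 genes were chosen by name, with earlier results of these data known, out of 48795 genes listed, and all 8 were among the 11228 genes that passed the filter on low counts and were tested. RNA was sequenced from bone marrow-derived macrophages (BMDMs), which the authors derived from mouse bone marrow with the growth factor M-CSF over 8 to 10 days. The study asked how particulate matter (PM), the solid fraction of polluted air, changes the transcripts of macrophages, and whether itaconate, the product of the mitochondrial enzyme ACOD1, alters that response. There were 12 libraries in 6 groups of 2. WT BMDMs, labelled as strain C57BL/6, and Acod1-/- BMDMs, labelled as strain C57BL/6NJ-Acod1em1(IMPC)J/J, received either vehicle, PM at 20 μg/cm2 for 24 hours, or PM after 2 hours of pretreatment with 0.25 mM 4-octyl itaconate (OI), a form of itaconate that crosses the cell membrane. The groups are called WT vehicle, WT PM, WT OI+PM, Acod1-/- vehicle, Acod1-/- PM and Acod1-/- OI+PM. Per the methods, the mice were males of 7 to 11 weeks and the WT mice were C57BL/6NJ. The Acod1 allele is a germline deletion, so that it was not limited to 1 cell type, and no group received OI without PM. Nothing in the labels says that the 2 libraries of a group came from separate mice or cultures, so p-values measure the spread between these libraries, which may be technical.

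The libraries held between 33616577 and 36817898 counted reads. All 8 genes of the macrophage marker list were tested in every group, and their summed level in normalized CPM (counts relative to library size) was 14278 to 14599 with vehicle, 23189 to 27338 with PM and 14428 to 16637 with OI+PM over both genotypes. Most of it was Lyz2, and the sum was highest in the PM groups, as Clec4e was. The part of this in the results was not tested. Of the neutrophil list, Ly6g had at most 1 read in a library, and the summed level of the 9 genes was 6.95 to 6.97 in WT vehicle, 13.3 to 19.7 in WT PM and 29.8 to 61.4 in WT OI+PM, with S100a8 as its most abundant gene (means of 4.05, 12.6 and 44.6). The T cell, B cell, mast cell and fibroblast lists summed to at most 1.33, 0.0833, 0.0308 and 1.55 CPM in any library. The dendritic cell list summed to 3.49 to 3.50 CPM in WT vehicle, 2.34 to 4.27 in WT PM and 4.28 to 5.01 in WT OI+PM. In Acod1-/- BMDMs it summed to 2.64 to 3.01, 2.70 to 2.76 and 2.71 to 3.57 in the same order. These are bulk samples, in which fewer cells of a type and less RNA per cell cannot be told apart. Acod1, the targeted gene, was lower in the Acod1-/- libraries but was not absent from them, at 181 and 170 CPM in WT PM against 108 and 94.1 in Acod1-/- PM. Nnt, which is partly deleted in the C57BL/6J substrain, had 21.2 to 37.7 CPM in the WT libraries and 52.0 to 74.3 in the Acod1-/- libraries, and Wdfy1 had 12.3 to 16.9 against 55.8 to 71.9. Genotype and strain background therefore cannot be told apart in any comparison between genotypes.

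C-type lectin receptors are surface proteins with a lectin-like domain that bind sugars, lipids or crystals on microbes and dying cells. The activating receptors signal through an ITAM motif, either on an adaptor such as the Fc receptor gamma chain (Fcer1g) or DAP12 (Tyrobp) or in their own tail, and recruit the kinase SYK, which activates NF-κB through CARD9, BCL10 and MALT1. Inhibitory members such as CLEC12A carry an ITIM motif that recruits phosphatases such as SHP-1 (Ptpn6).

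The 8 genes all lie on mouse chromosome 6 in GRCm38, the build to which the authors mapped their reads. Clec4e (ENSMUSG00000030142.10) spans chr6:123281789-123289870 on the minus strand, and Clec4d (ENSMUSG00000030144.4) spans chr6:123262111-123275265 on the plus strand, so the neighbours point towards each other with 6523 bases between their ends. Clec4n, Clec4a3 and Clec4a1 lie further along the same cluster, at chr6:123229843-123247021, chr6:122952515-122969875 and chr6:122921848-122934619, all on the plus strand. Clec12a (chr6:129342691-129365303, plus strand) and Clec7a (chr6:129461591-129472779, minus strand) lie in a second group of lectin genes, with Clec12b, Clec1b, Clec9a and Clec1a between them, and Clec5a (chr6:40574894-40585821, minus strand) stands alone. No exon of the 8 genes overlaps an exon of another annotated gene. The annotation (GENCODE M21) classes Clec7a as a polymorphic pseudogene and the other 7 as protein coding. Over 50-base stretches, the length of the reads, 6 of the genes shared no sequence with the transcripts of other genes, Clec4n shared 0.686% with Gm44147, and Clec12a shared 0.457% with several unrelated genes.

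RefSeq promoter sequences (GRCm38.p6) were found for 7 of the 8 genes, all but Clec4n. The Clec12a sequence lies inside the gene span given above, which begins at chr6:129342691. It therefore precedes a start within the annotated gene, and the sequence before the annotated gene start was not searched. The 250 bases before the transcription start are shown for Clec4e (chr6:123289872-123290121, minus strand) and Clec4d (chr6:123261857-123262106, plus strand), neighbours that PM raised together and OI moved apart, and for Clec7a (chr6:129472780-129473029, minus strand) and Clec12a (chr6:129349994-129350243, plus strand), genes of the second group that OI moved in opposite directions. Capitals mark matches, on either strand, to 6 short words that stand for the binding motifs of macrophage factors: GAGGAA (PU.1), TTGCNNAA (C/EBP), TGANTCA (AP-1), TGACNNNGC (NRF2), GGG and CC with 5 free bases between them (NF-κB), and GAAA written 2 times with 2 free bases between (IRF).
Clec4e: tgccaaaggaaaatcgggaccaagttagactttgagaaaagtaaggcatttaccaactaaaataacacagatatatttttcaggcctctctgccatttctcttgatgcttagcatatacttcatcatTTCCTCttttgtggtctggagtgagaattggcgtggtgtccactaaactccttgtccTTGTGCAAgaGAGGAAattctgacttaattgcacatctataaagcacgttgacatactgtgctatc
Clec4d: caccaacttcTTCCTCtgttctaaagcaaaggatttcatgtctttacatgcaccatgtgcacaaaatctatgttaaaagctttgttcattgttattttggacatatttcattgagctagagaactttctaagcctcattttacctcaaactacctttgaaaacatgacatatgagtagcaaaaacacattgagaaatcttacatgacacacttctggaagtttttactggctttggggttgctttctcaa
Clec7a: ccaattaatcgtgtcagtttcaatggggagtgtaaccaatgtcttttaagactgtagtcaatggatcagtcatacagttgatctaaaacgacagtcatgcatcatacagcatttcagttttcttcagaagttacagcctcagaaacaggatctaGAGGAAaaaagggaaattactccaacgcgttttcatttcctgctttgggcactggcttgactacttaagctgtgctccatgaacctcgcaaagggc
Clec12a: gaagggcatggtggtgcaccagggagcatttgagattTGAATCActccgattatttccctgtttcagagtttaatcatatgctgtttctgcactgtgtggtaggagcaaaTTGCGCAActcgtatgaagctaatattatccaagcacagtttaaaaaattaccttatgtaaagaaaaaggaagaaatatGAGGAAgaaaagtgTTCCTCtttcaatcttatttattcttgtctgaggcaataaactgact

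The PU.1 word was present in the windows of all 7 genes, against 23.3% of 32851 promoter entries of the same length. Clec4e and Clec12a also held the C/EBP word, which 9.6% of all entries hold. In the Clec4e window the C/EBP word lay at -66 to -59 from the start, next to a PU.1 word at -56 to -51. The AP-1 word was found in Clec12a only (6.7% of all entries) and the NF-κB word in Clec4a1 only (45.8%), where 2 overlapping matches share most of their bases. The NRF2 word (10.2%) and the IRF word (3.0%) were not in the windows of the 7 genes. Clec7a and Clec4a3 have 2 entries each, and in Clec4a3 the PU.1 word was in 1 of them. A match to such letters is not evidence of binding, and its absence from this window says nothing of the rest of the gene.

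Levels are given as normalized CPM, the reads of a gene scaled to the size of its library with TMM factors. Clec4e encodes Mincle, which binds the mycobacterial glycolipid trehalose dimycolate and the nuclear protein SAP130 released by dying cells. It was at 11.7 and 12.3 CPM in WT vehicle, 282 and 268 in WT PM, and 30.0 and 45.0 in WT OI+PM. In Acod1-/- BMDMs it was at 8.67 and 9.55 with vehicle, 328 and 285 with PM, and 38.9 and 46.0 with OI+PM. The PM libraries of both genotypes stood far above all others, the OI+PM libraries were intermediate, and the vehicle libraries were lowest. The OI+PM libraries of the 2 genotypes overlapped, and no other neighbouring groups in this order did.

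Clec4d encodes MCL, which binds the same glycolipid, pairs with Mincle on the cell surface and raises Mincle protein. Its level in WT BMDMs was 501 and 468 CPM with vehicle, 1440 and 1642 with PM, and 2677 and 3933 with OI+PM. In Acod1-/- BMDMs these levels were 483 and 481, 1626 and 1444, and 2644 and 2781. At each treatment the libraries of the genotypes overlapped, and the treatments did not. The WT OI+PM libraries were the most unequal pair for this gene. Clec4d ranked 231 among all genes by CPM in WT vehicle, 53 in WT PM and 21 in WT OI+PM.

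Clec4n encodes Dectin-2, a receptor for fungal mannans that signals through the Fc receptor gamma chain. It was low with vehicle, at 5.56 and 4.53 CPM in WT and 5.47 and 5.41 in Acod1-/- BMDMs. PM brought it to 88.2 and 93.7 in WT and to 66.1 and 61.1 in Acod1-/- BMDMs. With OI+PM it was at 164 and 216 in WT and 156 and 164 in Acod1-/- BMDMs. The order of the treatments was that of Clec4d, and the WT PM libraries were above the Acod1-/- PM libraries without overlap.

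Clec7a encodes Dectin-1, the receptor for fungal beta-glucans, which carries its own ITAM-like motif. It held 492 and 472 CPM in WT vehicle, 469 and 481 in WT PM, and 1215 and 1236 in WT OI+PM. The Acod1-/- values were 455 and 488 with vehicle, 564 and 527 with PM, and 1404 and 1395 with OI+PM. The OI+PM libraries stood above all others, and WT vehicle, WT PM and Acod1-/- vehicle could not be ordered beyond the spread of their libraries.

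Clec5a encodes MDL-1, which signals through DAP12 and DAP10 (Hcst) and binds flaviviruses. Its level was 30.1 and 30.2 CPM in WT vehicle, 64.3 and 65.1 in WT PM, and 26.6 and 34.2 in WT OI+PM. In Acod1-/- BMDMs it was 26.7 and 29.5, 53.3 and 49.5, and 23.1 and 24.6. The PM libraries were highest in each genotype, and WT OI+PM overlapped WT vehicle.

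Clec12a encodes an inhibitory receptor for uric acid crystals from dead cells. It was at 509 and 505 CPM in WT vehicle, 398 and 463 in WT PM, and 105 and 115 in WT OI+PM. The Acod1-/- libraries had 578 and 593 with vehicle, 582 and 502 with PM, and 166 and 167 with OI+PM. The 4 OI+PM libraries were the lowest of the 12, and those of Acod1-/- BMDMs were above those of WT.

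Clec4a1 and Clec4a3 encode DCIR4 and DCIR3, members of the dendritic cell immunoreceptor family. Clec4a1 was at 19.3 and 16.9 CPM in WT vehicle, 34.5 and 33.9 in WT PM, and 8.62 and 8.9 in WT OI+PM, and at 23.6 and 25, 49.0 and 41.1, and 11.7 and 12.4 in the same order in Acod1-/- BMDMs. Clec4a3 was at 21.9 and 20, 31.2 and 29.5, and 11.2 and 12.6 in WT, and at 28.3 and 28.5, 45.4 and 41.1, and 19.5 and 20.2 in Acod1-/- BMDMs. For both genes PM was the highest and OI+PM the lowest treatment within each genotype, and at every treatment the Acod1-/- libraries lay above the WT libraries without overlap.

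**Figure D1:**
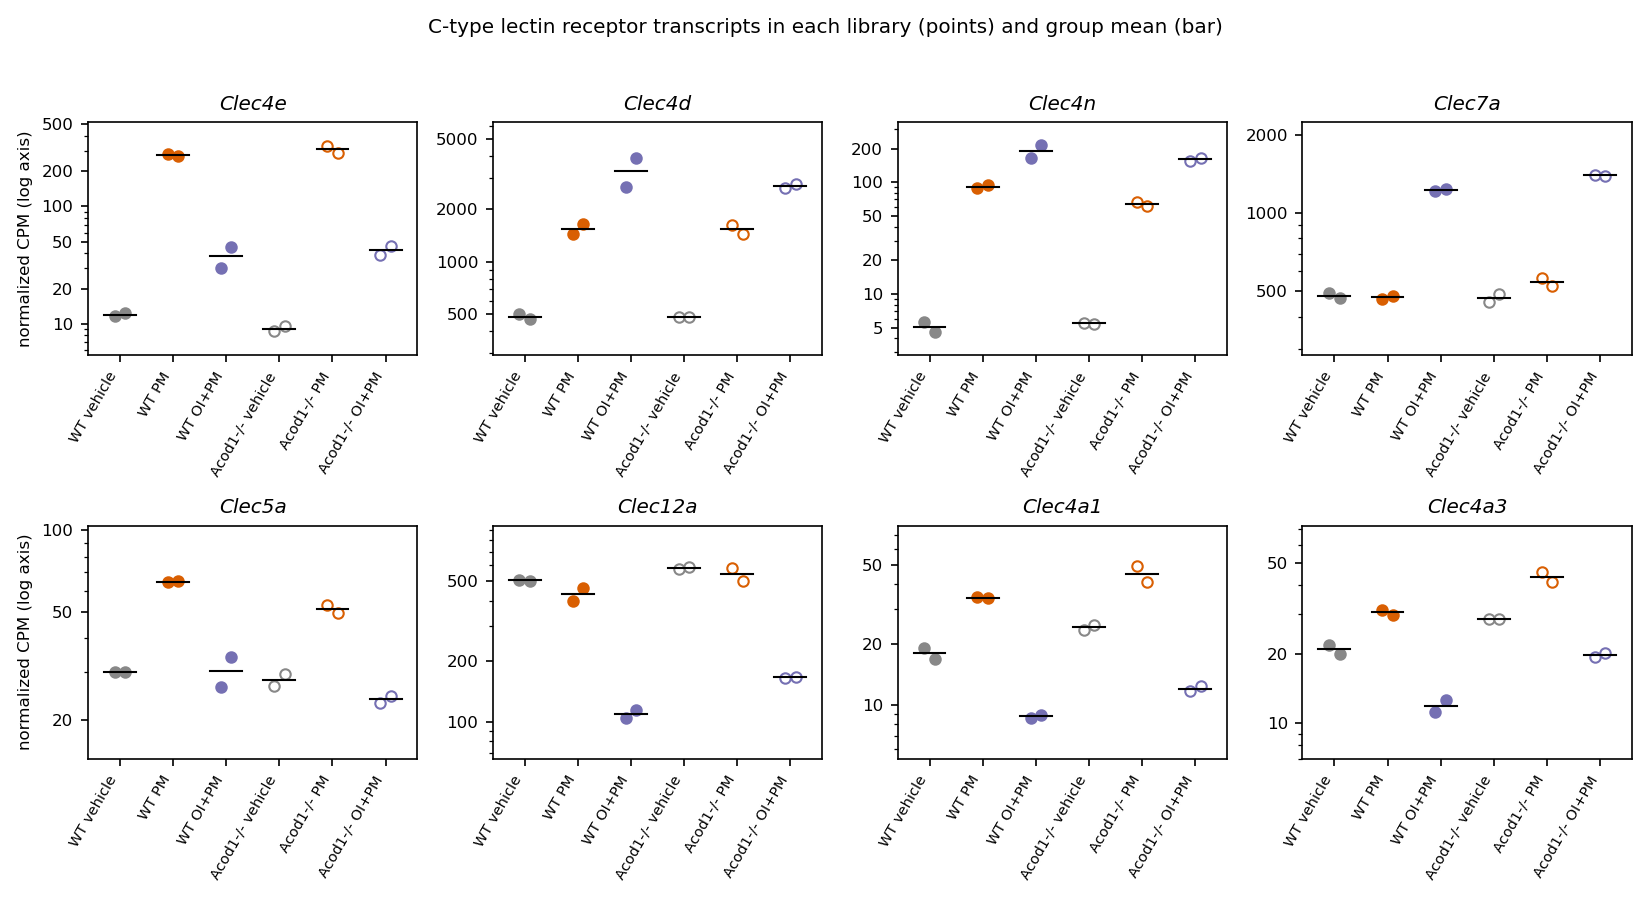
Normalized CPM (log axis) of the 8 receptor genes in the 12 libraries. Each point is 1 library, filled for WT and open for Acod1-/-, and each bar is the mean of the 2 libraries of a group. Clec4e is highest in the PM libraries (268 to 328), Clec4d, Clec4n and Clec7a are highest in the OI+PM libraries, and Clec12a, Clec4a1 and Clec4a3 are lowest there within each genotype.

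To compare genes with each other, CPM was divided by the exonic length in kb. Clec4d was the most abundant of the 8 in all 6 groups, with 303 ± 14.7 CPM per kb (SD, n = 2) in WT vehicle, 964 ± 89.1 in WT PM and 2067 ± 556 in WT OI+PM. Its share of the summed level per kb of the 8 genes was 49%, 68.7% and 76.1% in these groups. Clec7a came next in every group, with 183 ± 5.20, 180 ± 3.13 and 465 ± 5.79 CPM per kb in WT. Clec12a followed in the vehicle and PM groups, and Clec4n took its place in the OI+PM groups. Clec4e was the lowest of the 8 in WT vehicle (2.42 ± 0.0839) and the fifth in WT PM (55.4 ± 2.06), just under Clec4n (64.0 ± 2.75). In Acod1-/- PM the order of these genes was the opposite, with 61.7 ± 6.01 for Clec4e and 44.8 ± 2.47 for Clec4n.

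Per kb, Clec4d exceeded its partner Clec4e by 133 and 118 times in the WT vehicle libraries, 15.9 and 19.0 times with PM, and 277 and 271 times with OI+PM. In Acod1-/- BMDMs the ratios were 173 and 156 with vehicle, 15.4 and 15.7 with PM, and at least 188 in each library with OI+PM. The ratio of Clec7a to Clec12a per kb was 2.02 and 1.96 in WT vehicle, 2.47 and 2.18 in WT PM, and 24.3 and 22.4 in WT OI+PM. So both ratios were highest with OI+PM in each genotype, and the first was lowest with PM. The 8 genes took 0.163% and 0.169% of the reads of the WT vehicle libraries and 0.400% and 0.493% of those of WT OI+PM.

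**Figure D2:**
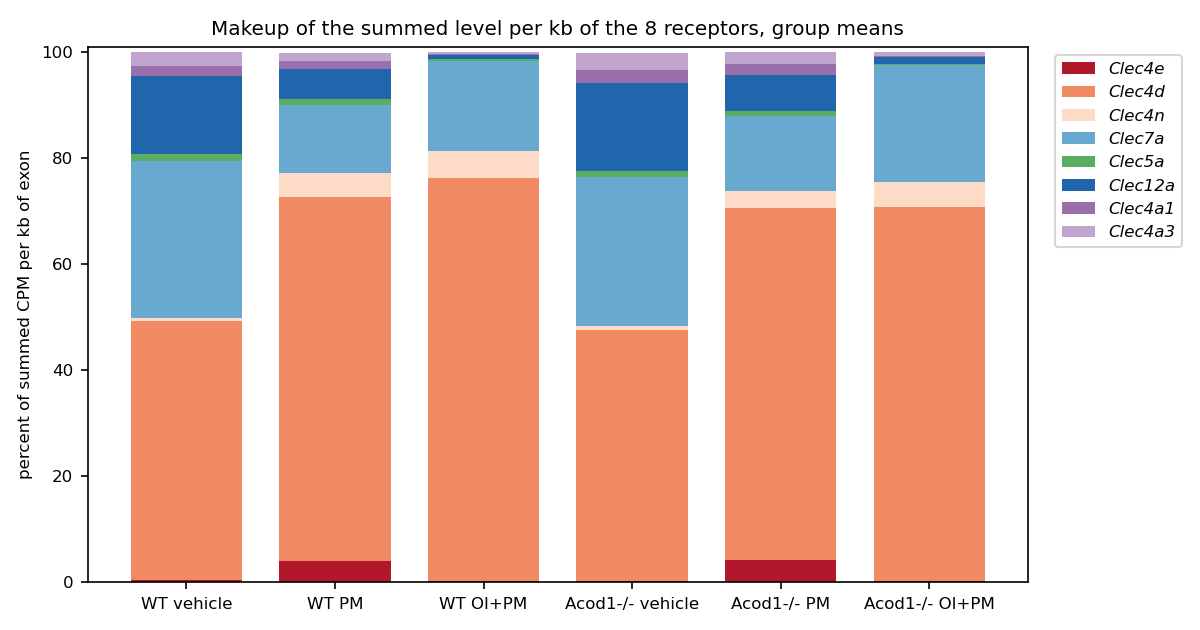
Share of each receptor gene in the summed CPM per kb of exon of the 8 genes (percent, group means of 2 libraries, stacked to 100). Clec4d makes up 49% in WT vehicle and 76.1% in WT OI+PM, Clec12a shrinks from 14.8% to 0.733% between the same groups, and Clec4e is visible in the PM groups only (3.95% and 4.27%).

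The first comparison asked what PM alone does to these receptors. In WT BMDMs the transcripts of Mincle and Dectin-2 rose 22.9-fold and 18.0-fold, and those of MCL and MDL-1 rose 3.18-fold and 2.14-fold. Clec4a1 and Clec4a3 rose 1.89-fold and 1.45-fold. Of the 8 genes, 6 passed with an adjusted p (edgeR quasi-likelihood test, Benjamini-Hochberg over 11228 genes) of 0.05 or less, all of them higher, whereas 24.8% of all genes tested passed and 12.6% of all passed as higher. With the further requirement of a change of at least 2-fold, 4 of the 8 were called DEGs, against 4.15% of all genes. The median log2 fold change was 1.01 over the 8 genes and 0.01 over all genes tested.

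The log2 fold change of Clec4e was 4.51 (SE 0.185, adjusted p = 3.17e-07), the 17th largest increase among the genes tested, and that of Clec4n was 4.17 (SE 0.149, adjusted p = 1.43e-07), the 26th largest. Clec4d had 1.67 (SE 0.152, adjusted p = 4.04e-05) and Clec5a 1.10 (SE 0.108, adjusted p = 6.83e-05). The PM and vehicle libraries did not overlap in 7 of the 8 genes, all but Clec7a, and these include Clec12a, which did not pass. The share of all genes without such overlap is not given. Clec4a1 had 0.92 (SE 0.0998, adjusted p = 0.000131) and Clec4a3 had 0.53 (SE 0.0864, adjusted p = 0.00171), which did not pass with an offset for exonic length (0.28, adjusted p = 0.0697). Clec7a, at -0.02 (SE 0.0576, adjusted p = 0.8), and Clec12a, at -0.24 (SE 0.0891, adjusted p = 0.0785), did not pass. The Clec12a call changed with WT PM replicate 2 left out (-0.35, adjusted p = 0.0459) and with either WT OI+PM library left out (-0.24, adjusted p = 0.0308 in each), and also with DESeq2 (-0.25, 0.0408) and total count scaling (-0.33, 0.0139).

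PM in Acod1-/- BMDMs raised 7 of the 8 genes, whereas 23.9% of all genes tested passed in either direction, and 3 of the 7 were DEGs, against 4.50% of all genes. Clec4e rose 33.6-fold (log2 5.07, SE 0.192, adjusted p = 1.42e-07), Clec4n 11.7-fold (log2 3.55, SE 0.146, adjusted p = 2.33e-07) and Clec4d 3.19-fold (log2 1.67, SE 0.152, adjusted p = 3.29e-05). Clec5a, Clec4a1 and Clec4a3 had log2 fold changes of 0.87, 0.89 and 0.61, with SEs of 0.109, 0.0983 and 0.085. Clec7a passed at a small size, 0.21 (SE 0.0577, adjusted p = 0.0255), a call that was lost without Acod1-/- vehicle replicate 1 (adjusted p = 0.205), Acod1-/- vehicle replicate 2 (0.0506) or Acod1-/- PM replicate 1 (0.188). It was also lost with total count scaling (0.13, adjusted p = 0.112) and with an offset for exonic length (0.11, adjusted p = 0.285). Clec12a did not pass (-0.11, SE 0.0890, adjusted p = 0.384).

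The second comparison asked how OI pretreatment changed the receptors of PM-exposed cells. The 8 genes split. Mincle fell 7.33-fold in WT BMDMs, and Clec12a, Clec4a1, Clec4a3 and Clec5a fell 3.91-fold, 3.90-fold, 2.55-fold and 2.13-fold. Dectin-1, MCL and Dectin-2 rose 2.58-fold, 2.14-fold and 2.09-fold. All 8 passed and all 8 were DEGs, 3 higher and 5 lower, against 43.9% of all genes passed and 10.8% called DEGs (2.30% higher and 8.49% lower). The median log2 fold change was -1.22 over the 8 genes and 0.02 over all genes tested.

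Among the genes that OI lowered in WT BMDMs, the log2 value of Clec4e was -2.87 (SE 0.17, adjusted p = 5.2e-07), that of Clec12a -1.97 (SE 0.0929, adjusted p = 1.02e-07), Clec4a1 -1.97 (SE 0.107, adjusted p = 2.84e-07), Clec4a3 -1.35 (SE 0.0906, adjusted p = 1.28e-06) and Clec5a -1.09 (SE 0.109, adjusted p = 2.54e-05). Among those it raised, Clec7a had 1.37 (SE 0.0586, adjusted p = 5.23e-08), Clec4d 1.10 (SE 0.149, adjusted p = 0.000218) and Clec4n 1.06 (SE 0.124, adjusted p = 7.49e-05). No OI+PM library of any of the 8 genes overlapped a PM library of the same genotype. The share of all genes without such overlap is not given, so this is a description only. Clec7a, which did not pass with PM alone in WT, had the highest level of any but Clec4d among the 8 in the OI+PM libraries. The Clec4d change rested in size on the unequal WT OI+PM libraries, at 1.35 without replicate 1 and 0.80 without replicate 2, and both passed. Under 2-fold in some settings were Clec4d (0.94 with the length offset), Clec4n (0.90 with the offset, 0.85 without WT OI+PM replicate 2) and Clec5a (-0.92 without WT OI+PM replicate 1), all of which still passed.

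With OI in Acod1-/- BMDMs the same 3 genes were higher and the same 5 lower, against 34.6% of all genes passed (13.9% higher and 20.6% lower) and 9.83% called DEGs, and Clec4d was the 1 gene of the 8 under 2-fold. Clec4e fell by 2.85 on the log2 scale (SE 0.169, adjusted p = 5.53e-07), Clec4a1 by 1.90 (SE 0.104), Clec12a by 1.71 (SE 0.0918), Clec4a3 by 1.12 (SE 0.0869) and Clec5a by 1.11 (SE 0.110). Clec7a rose by 1.36 (SE 0.0586, adjusted p = 5.6e-08), Clec4n by 1.33 (SE 0.125) and Clec4d by 0.82 (SE 0.149, adjusted p = 0.00169). The S100a8 transcript, the neutrophil list gene given above, moved with the OI groups as well, with means of 12.8 CPM in Acod1-/- PM and 32.1 in Acod1-/- OI+PM, and its part in these results was not tested. Other genes of that list went the other way from WT PM to WT OI+PM, with means of 1.71 and 0.446 CPM for S100a9, 0.990 and 0.107 for Ngp, and 0.717 and 0.0319 for Ltf, and all 3 were lower in Acod1-/- OI+PM than in Acod1-/- PM as well. Cxcr2 was higher with OI+PM than with PM, at means of 0.244 and 0.336 CPM in WT and 0.203 and 0.379 in Acod1-/- BMDMs. Ltf and Cxcr2 did not pass the filter on low counts and were not tested. Mpo, Elane and Ly6g, which define neutrophils and their precursors, were at no more than 0.191, 0.114 and 0.0301 CPM in any library.

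**Figure D3:**
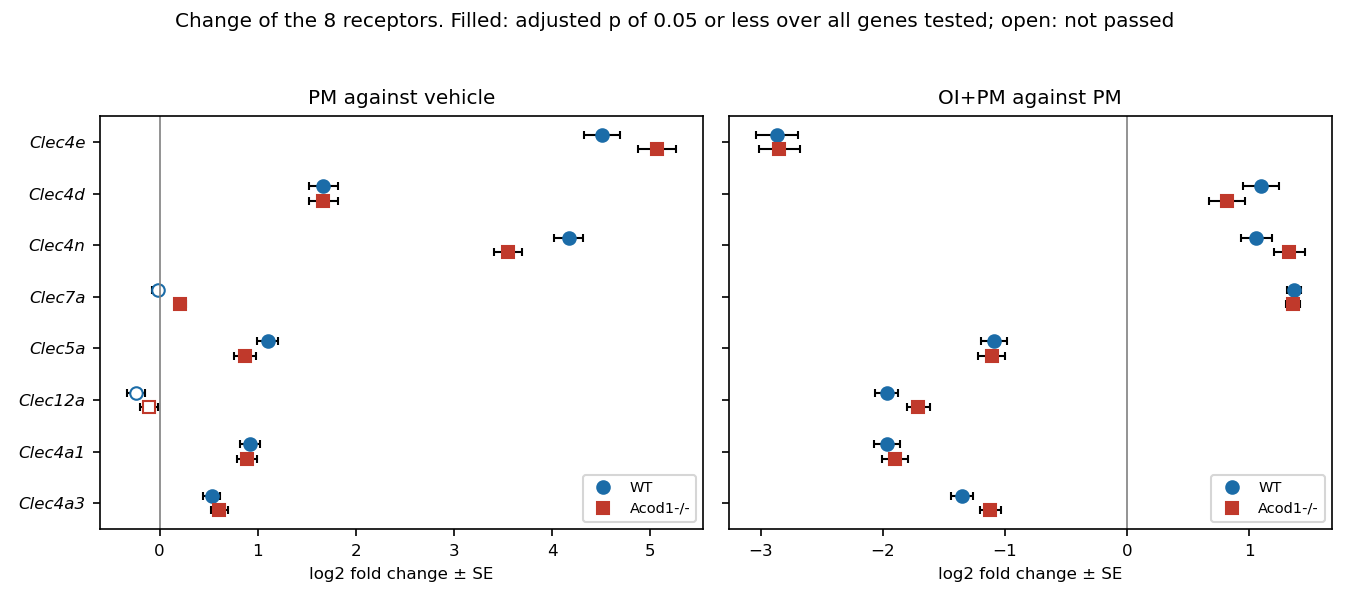
Log2 fold changes (points) with their SE (bars) of the 8 receptor genes, for PM against vehicle and for OI+PM against PM, in WT (circles) and Acod1-/- (squares) BMDMs. Filled symbols passed and open symbols did not. Clec4e moves from 4.51 with PM to -2.87 with OI in WT, and Clec4d and Clec4n are above 0 in both panels.

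Against vehicle, and hence across both steps, OI+PM left Mincle transcripts 3.12-fold higher in WT and 4.66-fold higher in Acod1-/- BMDMs (log2 1.64, SE 0.173, adjusted p = 2.56e-05 and log2 2.22, SE 0.177, adjusted p = 3.83e-06). Dectin-2 was 37.7-fold and 29.4-fold higher (log2 5.24, SE 0.154 and log2 4.88, SE 0.152), MCL 6.82-fold and 5.63-fold higher, and Dectin-1 2.54-fold and 2.97-fold higher. Clec12a was 4.61-fold and 3.52-fold lower, Clec4a1 2.07-fold and 2.01-fold lower, and Clec4a3 1.76-fold and 1.43-fold lower. In each genotype 4 of the 8 genes passed as higher and 3 as lower, against 65.5% of all genes passed in WT (33.6% higher and 31.9% lower) and 49.4% in Acod1-/- BMDMs (22.7% and 26.7%). Clec5a did not pass in either, at 0.01 (SE 0.11, adjusted p = 0.942) and -0.24 (SE 0.111, adjusted p = 0.103). The second of these passed without either WT OI+PM library, at an unchanged -0.24 (adjusted p = 0.0147 and 0.0146). It also passed with the compared groups alone (-0.22, adjusted p = 0.00254), total count scaling (-0.38, 0.00633) and the length offset (-0.28, 0.0211).

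Between genotypes the receptors differed little. With vehicle, 1 of the 8 genes passed, Clec4a3, which was 1.36-fold higher in Acod1-/- BMDMs (log2 0.44, SE 0.0864, adjusted p = 0.0348), against 1.83% of all genes. With PM, 1 of the 8 passed, again Clec4a3 (log2 0.51, SE 0.0848, adjusted p = 0.0124), against 2.40% of all genes. With OI+PM, Clec4a3 (0.74, SE 0.0916, adjusted p = 0.00225), Clec12a (0.59, SE 0.0906, adjusted p = 0.00713) and Clec4a1 (0.46, SE 0.110, adjusted p = 0.0369) passed, all higher in Acod1-/- BMDMs, against 6.96% of all genes in either direction and 2.51% as higher. None of these reached 2-fold.

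Clec4e was lower in Acod1-/- vehicle by 0.40 on the log2 scale without passing (SE 0.181, adjusted p = 0.495), and passed with the compared groups alone (adjusted p = 0.000367). Clec12a had 0.21 (SE 0.0890, adjusted p = 0.461) with vehicle and 0.33 (SE 0.0892, adjusted p = 0.0967) with PM, and Clec4a1 had 0.42 (SE 0.1, adjusted p = 0.0824) and 0.40 (SE 0.0970, adjusted p = 0.0716). With DESeq2 Clec4a1 passed with vehicle and PM (adjusted p = 0.0239 and 0.0174) and Clec12a with PM (0.0199), and all 3 passed without either WT OI+PM library (0.0270 to 0.0375). With the compared groups alone Clec4a1 and Clec12a passed with vehicle (7.3e-06 and 1.15e-05), and with the length offset Clec4a1 passed with PM (0.0480). With OI+PM, the calls of Clec12a and Clec4a1 were lost with the compared groups alone (adjusted p = 0.203 and 0.33). The length offset ended the vehicle call of Clec4a3 (0.43, adjusted p = 0.0589). Clec4n was lower in Acod1-/- PM by 0.52 on the log2 scale without passing (SE 0.124, adjusted p = 0.0663). It did pass with DESeq2 (adjusted p = 0.00724), the compared groups alone (0.0341), total count scaling (0.0407) and the length offset (0.00477), and without either WT OI+PM library (0.00224 and 0.00225). Most of these calls depended on single libraries, whereas that of Clec4a3 with OI+PM passed with each library left out in turn (adjusted p up to 0.033) and was lost with the compared groups alone (0.203). The vehicle call of Clec4a3 held with a WT PM or a WT OI+PM library left out and was lost without any of the others (adjusted p = 0.054 to 0.371). Its PM call was lost without WT PM replicate 2 (0.103) or Acod1-/- PM replicate 1 (0.132). With OI+PM, Clec12a was lost without either Acod1-/- OI+PM library (0.0612 and 0.0701), and Clec4a1 without those (0.145 and 0.203), without WT OI+PM replicate 2 (0.0928) or without any vehicle library (0.0514 to 0.0672).

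Averaged over the 3 treatments, 5 of the 8 genes differed between genotypes, 4 higher and 1 lower in Acod1-/- BMDMs, against 15.7% of all genes (6.92% higher and 8.75% lower). Clec4a3 was 1.48-fold higher (log2 0.56, SE 0.0506, adjusted p = 0.000122), Clec4a1 1.34-fold (0.43, SE 0.0593, adjusted p = 0.00150), Clec12a 1.30-fold (0.38, SE 0.0517, adjusted p = 0.00138) and Clec7a 1.09-fold (0.12, SE 0.0333, adjusted p = 0.0381). Clec5a was 1.20-fold lower (-0.26, SE 0.0629, adjusted p = 0.0225). The first 3 passed with each library left out in turn. Clec7a was lost in 10 of these 12 fits, that is in all but those without a WT OI+PM library, and Clec5a was lost in 6 (adjusted p up to 0.130 and 0.0760). Clec4e, Clec4d and Clec4n did not pass. Clec4d and Clec4n did so without WT OI+PM replicate 1, a fit with 1 library in that group, in which more of all genes passed too. With 1 library left out, the log2 values were -0.18 to 0.00 for Clec4d and -0.28 to -0.15 for Clec4n.

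The response to PM or to OI was also compared between genotypes by interaction terms. In the main edgeR fit, 0 of the 8 genes and 0 of all genes (0%) passed for either term. At an unadjusted p under 0.05 there were 3 of the 8 and 273 of all genes for PM, and 0 of the 8 and 717 of all genes for OI. DESeq2 called 3 and 34 genes of all tested, none of them a receptor gene. For OI the length offset in edgeR called 21 genes, and 15 with the replicate number added, again no receptor gene. The 3 receptors were Clec4n, which rose less with PM in Acod1-/- BMDMs (-0.63 on the log2 scale, SE 0.2, unadjusted p = 0.0109 by edgeR), Clec7a (0.23, SE 0.0815, 0.0184) and Clec4e (0.56, SE 0.239, 0.0422), with adjusted p = 1 for each. For OI the Clec4d difference was -0.28 (SE 0.209, adjusted p = 0.820). It passed with WT OI+PM replicate 1 left out (-0.53, adjusted p = 0.0410), a fit in which 525 of all genes passed.

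In the cluster that runs from Clec4a1 to Clec4e, 9 protein-coding genes are annotated, of which 5 are described above. Their gene starts lie -368.0 kb (Clec4a1), -337.4 kb (Clec4a3), -60.0 kb (Clec4n) and -27.8 kb (Clec4d) from the start of Clec4e. With PM in WT BMDMs, the 3 genes at the Clec4e end had log2 fold changes of 4.17, 1.67 and 4.51, and the genes at the other end 0.92 and 0.53. Between them Clec4a2, which encodes the inhibitory receptor DCIR1, rose from 57.4 and 58.9 to 74.3 and 84.1 CPM (log2 0.44, SE 0.0899, adjusted p = 0.00626) and fell to 60.4 and 69.4 with OI+PM (-0.29, SE 0.0899, adjusted p = 0.0264). In Acod1-/- BMDMs its rise with PM passed (0.37, SE 0.0895, adjusted p = 0.0149), and its change with OI did not (-0.07, SE 0.0893, adjusted p = 0.613). Clec4b1 was low, at 0.479 to 3.1 CPM, and fell with PM (-1.57). Clec4a4 and Clec4b2 had at most 7 and 1 reads in a library and were not tested. With OI the cluster did not move as a unit, since Clec4n and Clec4d rose and the genes on either side of them fell or did not pass.

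**Figure D4:**
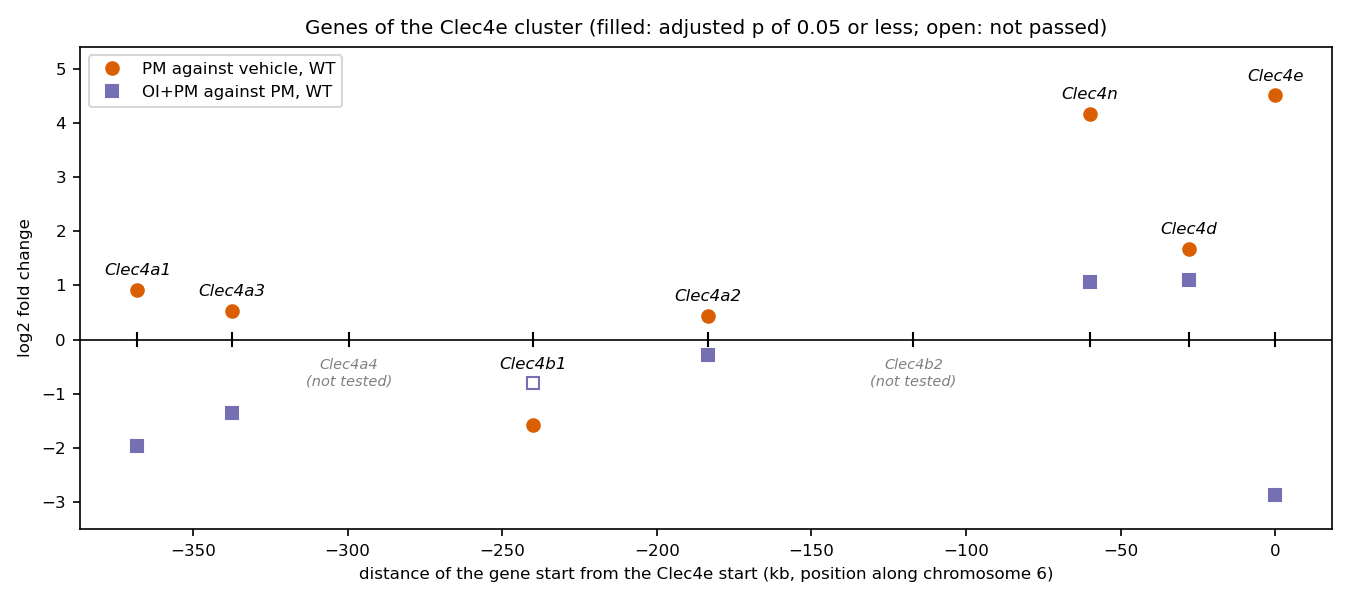
Log2 fold changes in WT BMDMs of the genes in the Clec4e cluster, against the distance of each gene start from the Clec4e start in kb. Circles are PM against vehicle, squares are OI+PM against PM, and open symbols did not pass. Clec4n and Clec4d have both symbols above 0, and Clec4e has 4.51 and -2.87.

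Of 51 other C-type lectin-like genes, 18 were tested. With PM in WT BMDMs 8 rose and 5 fell, and with OI 1 rose and 15 fell, with a median log2 fold change of -0.00 and -0.68 against 0.01 and 0.02 over all genes tested, of which 24.8% and 43.9% passed in either direction. Mrc1, the mannose receptor, fell from 457 and 401 CPM in WT vehicle to 287 and 233 with PM and 65.3 and 44.1 with OI+PM (log2 -0.72, SE 0.16, adjusted p = 0.00995 and -2.25, SE 0.169, adjusted p = 2.9e-06). Its PM libraries lay below its vehicle libraries and its OI+PM libraries below both. The largest PM changes were those of Olr1, a receptor for oxidized LDL (log2 4.34, SE 0.283), the activation marker Cd69 (2.51, SE 0.361) and the endocytic receptor Ly75 (2.37, SE 0.307). In that order their means were 0.352, 0.374 and 0.456 CPM in WT vehicle and 7.21, 2.17 and 2.37 in WT PM. With OI+PM the WT means of Cd69 and Ly75 were 0.204 and 0.602 CPM. Cd69 and Ly75 thus passed the filter on low counts through their PM libraries. That selection favours a rise with PM and a fall with OI in both genes, which the counts above include. The largest OI changes were those of Cd69 (-3.37, SE 0.432), Clec1a (-3.10, SE 0.43) and the phospholipase A2 receptor Pla2r1 (-2.78, SE 0.258), all of them at under 3 CPM in the WT libraries. The 1 gene of the list that OI raised in WT was Layn, a hyaluronan receptor, at 2.29 (SE 0.0704), named here after its value was seen.

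The genes through which the activating receptors signal were listed as well, and their changes were not tested against those of the receptors. All 26 adaptors and kinases were tested. With PM in WT BMDMs 7 rose and 4 fell (median log2 fold change 0.14), and with OI 3 rose and 12 fell (median -0.19), against 24.8% and 43.9% of all genes passed in either direction. Fcer1g, the gamma chain, was at 503 and 518 CPM in WT vehicle, 508 and 619 in WT PM, and 476 and 625 in WT OI+PM, which overlapped (log2 0.14, SE 0.127, adjusted p = 0.41 and -0.03, SE 0.128, adjusted p = 0.853). Tyrobp did not pass in either comparison (0.18, SE 0.133 and 0.32, SE 0.133). Syk did not pass with PM (0.11, SE 0.0764) and fell slightly with OI (-0.29, SE 0.0765, adjusted p = 0.012). Card9 had 0.25 (SE 0.137) and 0.22 (SE 0.137) and did not pass. Hcst, at 8.31 to 19.4 CPM in the WT libraries, passed with OI only (0.60, SE 0.202, adjusted p = 0.0368). In Acod1-/- BMDMs Hcst did not pass with OI (0.05, SE 0.204, adjusted p = 0.891).

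The largest changes in this list were those of Fgr and Src, kinases of the Src family, which phosphorylates ITAM motifs. Fgr rose with PM and fell with OI (1.84, SE 0.156, adjusted p = 2.66e-05 and -2.0, SE 0.162, adjusted p = 5.17e-06), and so did Src (0.91, SE 0.0924 and -1.09, SE 0.0947). Blnk, an adaptor downstream of SYK, fell with OI (-1.01, SE 0.0784). In Acod1-/- BMDMs 8 of the 26 rose and 3 fell with PM, and 2 rose and 11 fell with OI, against 23.9% and 34.6% of all genes passed in either direction. A list of 6 genes of inhibitory signalling held phosphatases and the adaptors Dok1 and Dok2. Of these, Ptpn6 rose with PM (0.31, SE 0.0597, adjusted p = 0.00446) and fell with OI (-0.51, SE 0.0599, adjusted p = 8.1e-05). Dok2 fell with PM (-0.38, SE 0.0986) and Dok1 rose with OI (0.25, SE 0.0806), and the others did not pass in WT. With OI in Acod1-/- BMDMs 0 of the 6 passed as higher and 1 as lower.

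**Figure D5:**
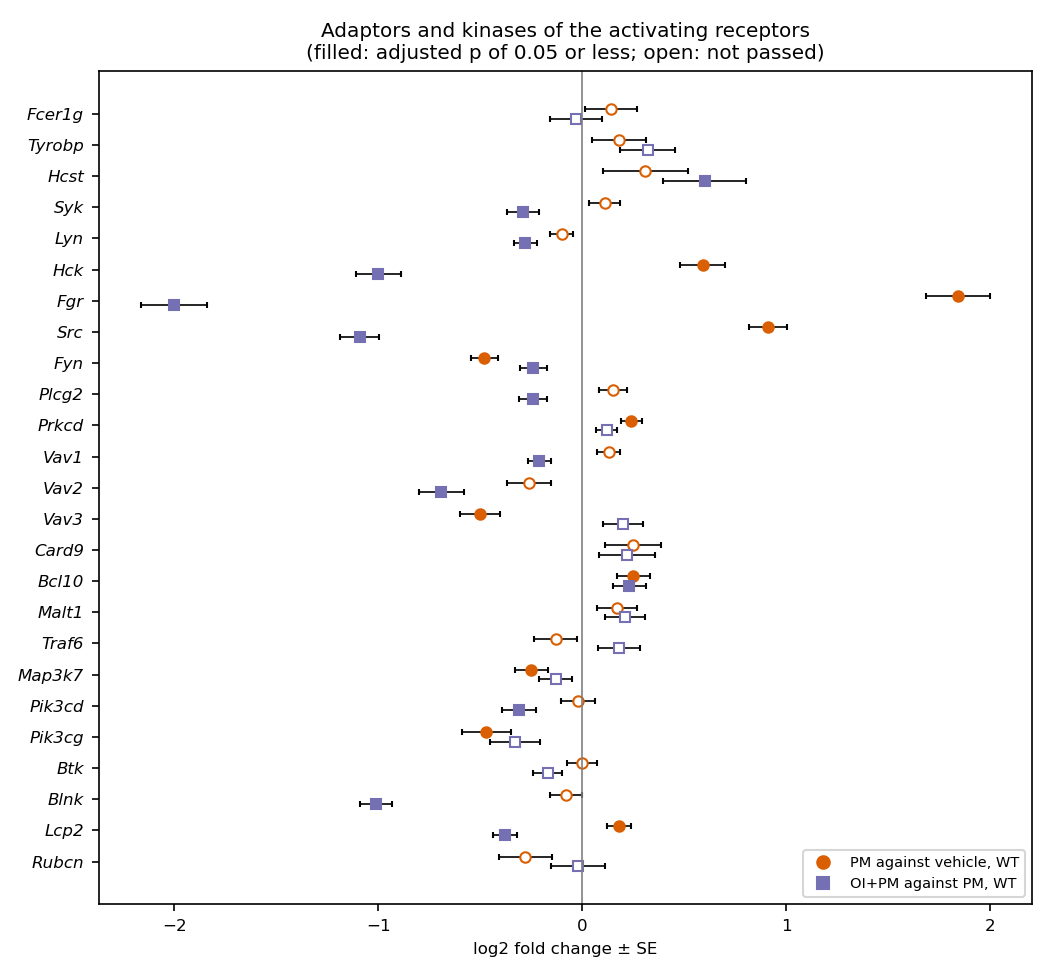
Log2 fold changes with their SE of 25 of the 26 adaptor and kinase genes in WT BMDMs. Circles are PM against vehicle, squares are OI+PM against PM, and open symbols did not pass. Fcer1g, Tyrobp and Card9 are open in both comparisons, and Fgr moves from 1.84 to -2.0.

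Further along the pathway, 19 of 20 transcription factor genes were tested, and 8 rose and 4 fell with PM in WT BMDMs, whereas 5 rose and 5 fell with OI, against 24.8% and 43.9% of all genes passed in either direction. Cebpb, which encodes a C/EBP factor, rose from 25.0 and 30.0 to 69.3 and 69.0 CPM with PM and to 82.7 and 113 with OI+PM (log2 1.33, SE 0.143, adjusted p = 0.000121 and 0.50, SE 0.138, adjusted p = 0.0149). The NF-κB gene Relb rose with PM (1.70, SE 0.171) and fell with OI (-0.52, SE 0.165), and Egr1 did the reverse (-1.19, SE 0.127 and 0.96, SE 0.13). Egr2 rose with OI (1.44, SE 0.0651) and Nfatc2 fell (-1.42, SE 0.175). Of 15 textbook transcripts that SYK and CARD9 signalling raises, 8 were tested. With PM in WT BMDMs 6 rose, led by the chemokines Cxcl3 (6.31, SE 0.437), Cxcl1 (6.04, SE 0.36) and Cxcl2 (4.89, SE 0.287). With OI in WT 3 fell, namely Il1b (-2.17, SE 0.154), Ccl4 (-1.78, SE 0.219) and Tnf (-1.32, SE 0.156), and the others, Cxcl1 to Cxcl3 among them, did not pass. The shares of all genes passed in either direction were again 24.8% and 43.9%. In Acod1-/- BMDMs 6 rose with PM and 5 fell with OI, against 23.9% and 34.6% of all genes passed in either direction. Toll-like receptors and cytokines raise these transcripts too, so they do not mark the lectin receptors alone. Of 5 ligand genes, 4 were tested, and Sap130, Anxa1, Anxa5 and Vim did not pass with PM or OI in WT BMDMs.

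The genes whose pattern over the 6 group means was most like that of Clec4e, among 9558 genes with a mean of at least 5 CPM, were Sod2 (Pearson r = 0.9947 over 6 means), Fpr2 (0.9937), Mfsd7a (0.9909), F7 (0.9902) and Ccrl2 (0.9894). Fpr2, a formyl peptide receptor, had log2 fold changes of 4.63 with PM and -3.39 with OI in WT, close in size to those of Clec4e. Sod2, the mitochondrial superoxide dismutase, had 2.16 and -1.13. Over the 12 libraries 4 of these 5 were again the nearest, with Il2rg in place of Mfsd7a. Among the receptors themselves r over the 6 means was 0.99 for Clec4d and Clec4n, 0.97 for Clec4a1 and Clec4a3, and -0.95 for Clec7a and Clec12a, and Clec4e was nearest to Clec5a (0.83). With 6 points that share 3 treatments, high values of r are common, and 74 genes had an r over 0.95 with Clec4e. These are descriptions without a test.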

How the data were processed

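RNA of 12 BMDM libraries was sequenced by the authors as single-end reads of 50 bases, mapped to GRCm38 with STAR 2.5.3a, checked with FastQC 0.11.5 and Picard 2.9.0, and assigned to genes with featureCounts, per the submitters' processing notes. The files deposited by the authors hold unnormalized whole counts for each gene. The annotation release and the handling of strand are not given in the sources used here. Of 48795 identifiers, 48349 were matched to a symbol in GENCODE M21. Genes with CPM above 1.5 in at least 2 libraries (11228) were fitted in edgeR 4.0.16 (R 4.3.3) by the quasi-likelihood method, with TMM scaling, 6 group means and Benjamini-Hochberg adjustment over all genes tested. Genes passed at an adjusted p of 0.05 or less, and DEGs also changed at least 2-fold. To obtain an SE, the absolute log2 change was divided by the root of F. Intervals of counting error are not given, since the smallest count of a receptor gene in a library was 178 reads. The 8 genes, the gene lists, the marker lists and the naming rule were chosen with earlier results of these data known. The rule names the 8 genes, 9 fixed pathway genes, the 3 largest passed changes of each list with PM and with OI in WT, the 5 genes most like Clec4e and the 2 most like each other receptor. Alternatives were DESeq2 1.42.0, RLE scaling, total count scaling, the compared groups alone, 2 other filters, the DEG threshold, a replicate block, an offset for exonic length (lowess, span 0.3), that offset with the block, each library left out, and likeness over 12 libraries. The tests were tried on simulated counts. Some genes that the rule names are not reported here.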

Additional observations from a re-analysis of the deposited data

How the results depend on the processing

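The counts of receptor genes that passed for PM, OI and OI+PM against vehicle stayed within 1.5 times the value given under all alternatives but 1. That was the DEG threshold, under which 3 genes, and not 7, were counted with PM in Acod1-/- BMDMs in the main fit. The sign turned for 3 of the receptor changes given above. Clec7a with PM in WT was 0.01 without WT vehicle replicate 1 (leaving out 1 library gave -0.05 to 0.01). Clec5a for OI+PM against vehicle in WT was -0.00 with DESeq2 and RLE scaling, -0.01 with the compared groups alone, -0.22 with total count scaling, -0.03 with the filter on all libraries, -0.08 with the length offset with and without the block, and -0.18 to 0.18 with 1 library left out. The Clec4d interaction with OI was -0.53 to 0.02 with 1 library left out. The genotype differences with OI+PM of Clec4d (-0.28) and Clec4e (0.18), which did not pass, were -0.54 to 0.02 and -0.08 to 0.50 with 1 library left out.

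Counts of receptor genes between genotypes depended on the setting, and so did those of all genes. In the main fit 205, 269 and 782 of all genes passed with vehicle, PM and OI+PM. The compared groups alone gave 2316, 174 and 2, and the length offset 374, 588 and 1724. The counts that follow are of receptor genes. With vehicle (1 gene), DESeq2 gave 2, the compared groups alone 4, the length offset 0, the offset with the block 2, and 1 library left out 0 to 2. With PM (1 gene), DESeq2 gave 5, the compared groups alone 2, total count scaling 2, the length offset with or without the block 3, and 1 library left out 0 to 5. With OI+PM (3 genes), the compared groups alone gave 0, the length offset with or without the block 5, and 1 library left out 1 to 7. For the mean of 3 treatments (5 genes), 1 library left out gave 3 to 7, the latter without WT OI+PM replicate 1. As DEGs all these counts of receptor genes were 0. The interaction with OI had 0 to 1 genes with 1 library left out. The cause of these shifts was not tested.

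The labels do not say that equal replicate numbers share a mouse or a day, and deviations of same-numbered libraries correlated at 0.73 between WT PM and WT OI+PM but at -0.41 between WT PM and Acod1-/- PM. With the number as a replicate block 6, 7, 8, 8, 7 and 7 of the 8 genes passed in the PM, OI and OI+PM comparisons (WT, then Acod1-/-), and 1, 1, 3 and 5 between genotypes, as without it. The signed difference of log2 CPM, replicate 1 minus replicate 2, was correlated with exonic length across genes. Spearman's rho was 0.60 in WT PM, 0.61 in WT OI+PM, 0.29 in Acod1-/- OI+PM and 0.28 in WT vehicle. It was -0.36 in Acod1-/- PM and -0.08 in Acod1-/- vehicle. The sign of rho depends on which library is numbered 1, so only its size can be compared between groups. Under the offset Clec4a3 with PM in WT went from 0.53 to 0.28 (adjusted p = 0.0697, no longer passed) and Clec4d with OI from 1.10 to 0.94. Total count scaling shifted the median of all genes by -0.13 (OI) and -0.22 (OI+PM against vehicle) in WT. No receptor gene that passed for PM or OI in WT changed direction under it. The 8 genes had at least 178 reads in every library, and 2 libraries per group limit the precision of every SD.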

Other observations

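The other receptors also had near neighbours by pattern, given here as values over the 6 group means (n = 6) with no test. The genes most like Clec4d were Cnppd1 (r = 0.9984) and Fth1 (0.9978), which encodes the ferritin heavy chain and had log2 fold changes of 1.07 with PM and 0.82 with OI in WT. Those most like Clec4n were Hyou1 (0.9982) and Uchl1 (0.9967, with 2.09 and 0.57). Clec7a was nearest to Cracr2b (0.9994) and Mfsd14a (0.9967), and Clec12a was near Inpp4b (r = 0.9991, with -0.16 and -1.82). Clec4a1 was nearest to Parp14 (0.9987, with 0.75 and -1.71) and the guanylate-binding protein Gbp7 (0.9982, with 1.41 and -3.27). Clec5a was nearest to Wars (0.9960) and Eef1akmt1 (0.9862), and Clec4a3 to Slc15a4 (0.9948) and Nrp2 (0.9904). Over the 12 libraries the nearest gene was another one for Clec4d (Sqstm1, 0.9960), Clec4n (Treml4, 0.9941), Clec7a (Mfsd14a, 0.9947), Clec5a (Sdf2l1, 0.9662), Clec12a (Blnk, 0.9970) and Clec4a1 (Parp9, 0.9936).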
